A study of Mus musculus with 8 samples.

Results

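The 32 genes described here encode enzymes and regulators of cholesterol and fatty acid synthesis. They were taken as the rows whose gene symbol is on a list of 32 symbols, out of 50600 genes in the tables, and each of the 32 symbols was found once. All 32 passed the filter on low counts and carry an adjusted p, as do 14830 genes in all. The cells were C57BL/6 mouse embryonic fibroblasts that carried retroviral Gata4, Hand2, Mef2c and Tbx5 (GHMT), a set of transcription factors used to turn fibroblasts directly into heart muscle-like cells. All groups carried these factors, and no group without them is used here. After transduction the cells were kept in StemPro-34 SFM for 7 days with 5 µM I-CBP112, a bromodomain ligand of the acetyltransferases CBP and p300, with 5 µM C646, an inhibitor of their acetyltransferase activity, with 1% DMSO, or with 0.1% ethanol. Each group had 2 RNA sequencing libraries, 8 in all. The sources used here give neither the solvent of the inhibitors nor whether libraries came from separate cultures, so p-values measure the spread between these libraries, which may be technical. The deposited tables compare I-CBP112, C646 and DMSO each with a group they do not name, read here as ethanol, the remaining one. The question asked of the 32 genes was how each treatment changed their transcript levels, first against ethanol and then against the other treatments.

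Cholesterol is built from acetyl-CoA through the mevalonate pathway, squalene and lanosterol, and fatty acids are built from the same acetyl-CoA and then lengthened and desaturated. Genes of both pathways are targets of the sterol regulatory element-binding proteins (SREBPs), transcription factors made as precursors in the membrane of the endoplasmic reticulum. Scap escorts the precursors to the Golgi for cleavage when sterols are low, and Insig proteins hold Scap back when sterols are high. The protein made from Srebf2 acts mainly on sterol genes and forms of the Srebf1 protein mainly on fatty acid genes. SREBPs act beside NF-Y, which binds CCAAT boxes, and Sp1, which binds GC boxes.

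RefSeq promoter windows (GRCm38.p6, from 250 bases before to 50 after each gene's start) were at hand for 26 of the 32 genes. Those without one were Fdps, Fdft1, Sqle, Stard4, Scd1 and Scd2. The 250 bases upstream of 6 genes are shown because these genes take up the sterol, regulator and fatty acid arms of the results: Hmgcs1, Msmo1, Hsd17b7 and Insig1 were among the genes that rose with DMSO, while Srebf2 and Fasn did not pass the test. The windows are Hmgcs1 at chr13:119690101-119690350 on the plus strand, Msmo1 at chr8:64733579-64733828 on the minus strand, Hsd17b7 at chr1:169969206-169969455 on the minus strand, Insig1 at chr5:28071162-28071411 on the plus strand, Srebf2 at chr15:82147019-82147268 on the plus strand and Fasn at chr11:120824548-120824797 on the minus strand. These windows follow RefSeq starts. In GENCODE M21, which gives the gene positions used elsewhere, the gene begins earlier for 4 of them, so that 214 of the 250 bases of Msmo1, 88 of Srebf2, 49 of Insig1 and 36 of Hsd17b7 lie inside the annotated gene. Capitals mark matches on either strand to the sterol regulatory element TCACNCCAC with at most 1 mismatch, and to the CCAAT box. Each line reads 5′ to 3′ towards the gene.
Hmgcs1: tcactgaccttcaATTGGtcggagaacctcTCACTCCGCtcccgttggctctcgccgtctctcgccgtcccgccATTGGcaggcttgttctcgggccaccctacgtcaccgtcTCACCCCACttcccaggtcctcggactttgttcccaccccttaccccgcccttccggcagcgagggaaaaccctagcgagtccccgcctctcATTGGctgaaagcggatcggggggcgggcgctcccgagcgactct
Msmo1: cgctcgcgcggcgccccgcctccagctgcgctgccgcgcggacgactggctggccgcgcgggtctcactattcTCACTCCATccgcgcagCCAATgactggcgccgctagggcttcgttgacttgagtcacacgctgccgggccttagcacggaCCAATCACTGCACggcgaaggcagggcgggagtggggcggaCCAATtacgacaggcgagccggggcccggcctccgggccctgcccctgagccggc
Hsd17b7: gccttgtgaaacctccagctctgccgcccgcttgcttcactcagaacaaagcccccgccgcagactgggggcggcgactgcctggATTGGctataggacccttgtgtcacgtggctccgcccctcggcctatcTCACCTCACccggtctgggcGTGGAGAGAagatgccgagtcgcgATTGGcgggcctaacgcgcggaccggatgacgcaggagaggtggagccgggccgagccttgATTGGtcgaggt
Insig1: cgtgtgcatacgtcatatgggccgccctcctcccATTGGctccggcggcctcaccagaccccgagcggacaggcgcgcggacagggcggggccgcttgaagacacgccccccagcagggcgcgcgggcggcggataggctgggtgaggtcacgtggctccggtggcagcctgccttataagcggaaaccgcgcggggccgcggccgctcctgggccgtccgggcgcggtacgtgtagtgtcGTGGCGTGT
Srebf2: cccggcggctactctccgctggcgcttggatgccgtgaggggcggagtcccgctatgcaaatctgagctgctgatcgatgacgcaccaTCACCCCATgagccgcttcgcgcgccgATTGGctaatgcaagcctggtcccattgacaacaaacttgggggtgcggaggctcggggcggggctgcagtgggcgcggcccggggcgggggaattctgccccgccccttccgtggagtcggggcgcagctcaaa
Fasn: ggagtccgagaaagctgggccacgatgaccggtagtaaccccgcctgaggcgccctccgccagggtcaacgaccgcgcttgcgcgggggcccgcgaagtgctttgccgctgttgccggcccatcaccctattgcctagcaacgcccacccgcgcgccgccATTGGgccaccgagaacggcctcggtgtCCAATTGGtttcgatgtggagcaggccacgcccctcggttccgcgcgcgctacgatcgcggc

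Searched on both strands over the full windows, the sterol element was present without mismatch in 1 of the 26 genes, Hmgcs1, where it starts at position -137, and in 1.22% of 27025 genes with a window. With at most 1 mismatch it was found in 9 of 26 (34.6%), beside 24.0% of all genes with a window. A CCAAT box was present in 20 of 26 (76.9%), beside 37.9% of all, and the GC box GGGCGG in 20 of 26, beside 35.9% of all. In Msmo1 a CCAAT box overlaps a near match to the sterol element, and in Fasn a pair of CCAAT boxes on opposite strands overlap. Among the 15 genes with a window that rose with DMSO, 7 held the sterol element with at most 1 mismatch, 12 a CCAAT box and 13 a GC box. Among the other 11 these numbers were 2, 8 and 7. A match is a run of letters and does not show binding, and all genes with a window include noncoding ones.

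With DMSO, 19 of the 32 genes rose over ethanol and 0 fell, by adjusted p below 0.05 in the authors' deposited table. Of all tested genes 8.07% rose and 7.90% fell. None of the 32 was lower at an unadjusted p below 0.05 (DESeq2). The median log2 fold change of the 32 was 0.46 in the authors' deposited table, beside 0.03 for all tested genes. Positive values numbered 28 of 32, beside 54.4% of all tested genes. Most steps from acetyl-CoA to cholesterol were among the genes that rose, with changes from 0.40 for Nsdhl to 1.29 for Tm7sf2. The standard errors of the 32 genes, 0.11 to 0.22 with a median of 0.14, lay around and below the median of all tested genes (0.18). Their mean normalised counts over the 8 libraries ran from 353 (Tm7sf2) to 25756 (Scd2). With p-values from a t distribution on 4 degrees of freedom, the number the 8 libraries leave after 4 group means, 0 of the 32 genes passed in any comparison described here. Almost no gene of all those tested passed with DMSO under this rule either, so this outcome is not particular to the 32. The rule takes no account of the information on spread that DESeq2 shares between genes.

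**Figure D1:**
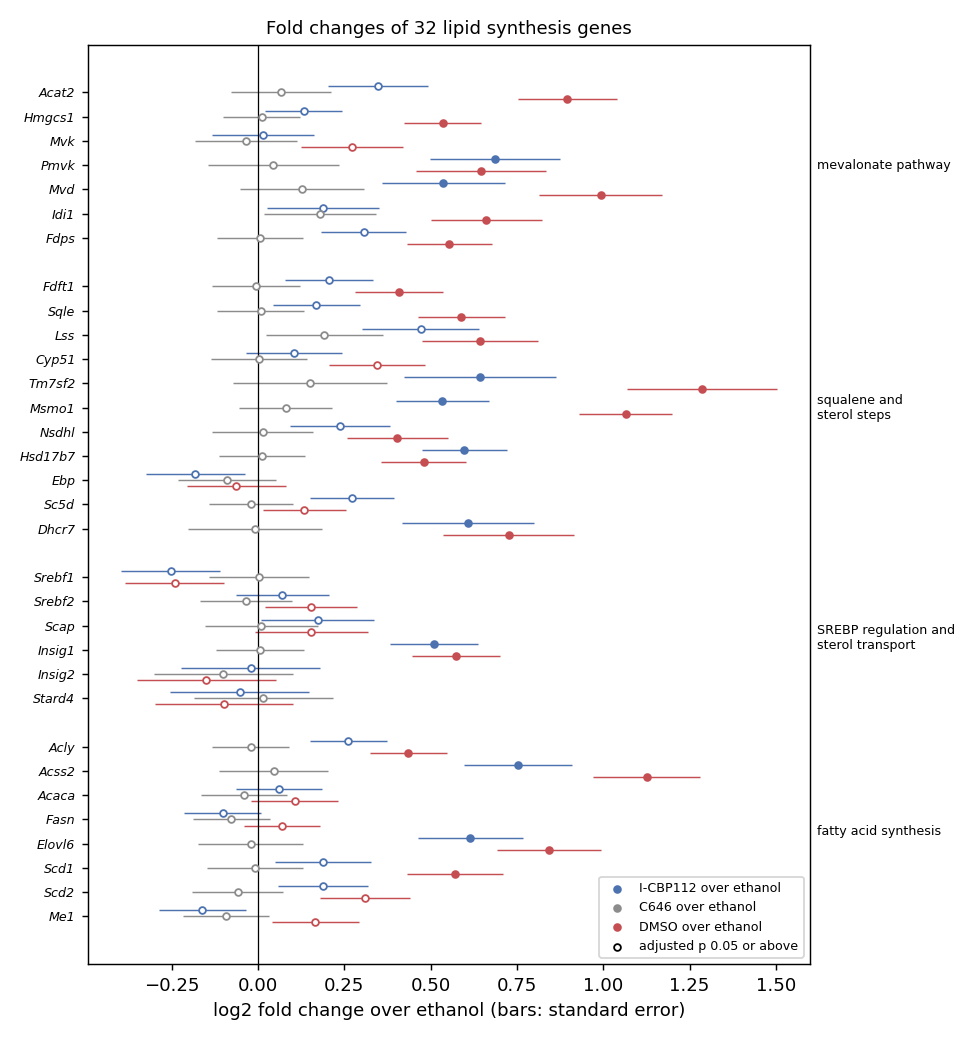
Log2 fold change over ethanol (horizontal axis) of the 32 genes (rows, grouped by role) with I-CBP112, C646 and DMSO, from the deposited tables. Bars are the deposited standard errors, and filled points have an adjusted p below 0.05, which 9 genes reached with I-CBP112, 0 with C646 and 19 with DMSO, all of them above 0.

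Below, levels are group means in normalised counts, rebuilt from the mean over all libraries and the 3 fold changes. No values of single libraries are at hand, so the spread is given by the standard error of the fold change. Levels of different genes are not compared, since counts also depend on transcript length.

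In the mevalonate pathway 6 of 7 genes rose with DMSO, and the median log2 fold change was 0.65. Acat2, which joins acetyl-CoA units at the first step, had a mean of 1562 normalised counts with DMSO and 840 with ethanol. Its log2 fold change was 0.90 ± 0.14 (SE, adjusted p = 2.12e-08, authors' deposited table), second in the pathway to that of Mvd. Hmgcs1, the next enzyme, makes HMG-CoA. Its means were 7338 with DMSO and 5066 with ethanol, a log2 fold change of 0.53 ± 0.11 in the authors' deposited table (adjusted p = 4.31e-05). Mvk and Pmvk add phosphates to mevalonate in turn, and only Pmvk passed with DMSO. Pmvk rose, with 587 normalised counts with DMSO against 375 with ethanol and a log2 fold change of 0.65 ± 0.19 (adjusted p = 0.00639, authors' deposited table). Mvk was at 1251 with DMSO and 1036 with ethanol, a log2 fold change of 0.27 ± 0.15 that did not pass (adjusted p = 0.227, authors' deposited table). Whether these kinases differ in their change was not tested.

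Mvd, which makes isopentenyl diphosphate, rose the most of the pathway. It had 1059 normalised counts with DMSO against 533 with ethanol, a 1.99-fold difference (log2 0.99 ± 0.18, adjusted p = 7.66e-07, authors' deposited table). Idi1, the isomerase that follows, had 2055 with DMSO against 1299 with ethanol (log2 0.66 ± 0.16, adjusted p = 0.000703, authors' deposited table). Fdps, which makes farnesyl diphosphate, had 4443 with DMSO against 3026 with ethanol (log2 0.55 ± 0.12, adjusted p = 0.000135, authors' deposited table).

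Of the 11 genes that carry farnesyl diphosphate to cholesterol, 8 rose with DMSO, with a median log2 fold change of 0.48. Tm7sf2, one of the sterol reductases that follow lanosterol demethylation, had the highest fold change of all 32 genes. Its mean was 564 normalised counts with DMSO and 231 with ethanol, 2.44-fold (log2 1.29 ± 0.22, adjusted p = 1.68e-07, authors' deposited table). Msmo1, which takes part in the removal of methyl groups from the sterol ring, had the lowest adjusted p of the 32. It is a protein-coding gene at chr8:64718139-64733792 (GRCm38, GENCODE M21), and it had 7718 normalised counts with DMSO against 3690 with ethanol, 2.09-fold (log2 1.06 ± 0.13, adjusted p = 2.08e-13, authors' deposited table).

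Dhcr7, the last reductase on one route to cholesterol, had 498 normalised counts with DMSO against 301 with ethanol (log2 0.73 ± 0.19, adjusted p = 0.00191, authors' deposited table). Lss, which closes the sterol rings, had 1630 with DMSO against 1044 with ethanol (log2 0.64 ± 0.17, adjusted p = 0.00187, authors' deposited table). Sqle, the squalene epoxidase, had 3863 with DMSO against 2567 with ethanol (log2 0.59 ± 0.13, adjusted p = 5.99e-05, authors' deposited table). The log2 fold changes of these enzymes lay between 0.59 and 0.73.

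Hsd17b7 and Nsdhl work with Msmo1 on the same methyl groups, and both had a smaller estimate than Msmo1. Hsd17b7 had 3117 normalised counts with DMSO against 2235 with ethanol (log2 0.48 ± 0.12, adjusted p = 0.00137, authors' deposited table). Nsdhl had 1050 with DMSO against 794 with ethanol (log2 0.40 ± 0.14, adjusted p = 0.0370, authors' deposited table), and it lost its call when the fold changes were centred on the median gene (adjusted p = 0.0651). Fdft1, which makes squalene, had 2545 with DMSO against 1918 with ethanol (log2 0.41 ± 0.13, adjusted p = 0.0125, authors' deposited table).

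Members of the sterol route that did not pass with DMSO were Cyp51, Sc5d and Ebp. Cyp51, the lanosterol demethylase, was at 5277 normalised counts with DMSO and 4153 with ethanol (log2 0.35 ± 0.14, adjusted p = 0.0715, authors' deposited table). For Ebp, a sterol isomerase, the log2 fold change was -0.06 (95% interval -0.34 to 0.22), and for Sc5d, a desaturase, 0.13 (-0.10 to 0.37), in the authors' deposited table. The upper end of the Ebp interval lies below the change of every gene that rose.

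Of the 6 genes of SREBP regulation and sterol transport, Insig1 alone rose with DMSO. Its product retains Scap in the endoplasmic reticulum, and the gene is itself a well-known SREBP target. It had 4692 normalised counts with DMSO against 3153 with ethanol (log2 0.57 ± 0.13, adjusted p = 0.000131, authors' deposited table). Insig2, which encodes the second Insig protein, was at 907 with DMSO and 1006 with ethanol (log2 -0.15 ± 0.20, adjusted p = 0.714, authors' deposited table). The test of the difference between the paralogs cannot be made from these tables, since it needs values of single libraries.

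The transcripts of the SREBPs themselves did not pass the test. In the authors' deposited table Srebf2 was at 0.15 with DMSO (95% interval -0.11 to 0.42) and Srebf1 at -0.24 (-0.52 to 0.04), on the log2 scale. Srebf1 is counted here as one gene, so its transcript forms are not told apart. Scap, at 0.15, and Stard4, which carries sterols in the cytosol, at -0.10, did not pass in the authors' deposited table either. These are transcript levels, and SREBP activity depends on cleavage of the protein, which RNA sequencing does not measure.

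In fatty acid synthesis 4 of 8 genes rose with DMSO, and the median log2 fold change was 0.37. Acss2, which makes acetyl-CoA from acetate, rose the most. It had 1353 normalised counts with DMSO against 620 with ethanol, 2.18-fold (log2 1.13 ± 0.15, adjusted p = 3.03e-11, authors' deposited table). Acly, which makes acetyl-CoA from citrate, had 9274 with DMSO against 6860 with ethanol (log2 0.43 ± 0.11, adjusted p = 0.00133, authors' deposited table). Elovl6, which lengthens palmitate, had 1758 with DMSO against 981 with ethanol (log2 0.84 ± 0.15, adjusted p = 8.25e-07, authors' deposited table). The genes that rose supply acetyl-CoA or modify finished fatty acids.

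Acaca and Fasn, which build the chain itself, did not pass with DMSO. In the authors' deposited table Fasn was at 0.07 (95% interval -0.15 to 0.29) and Acaca at 0.11 (-0.14 to 0.35) on the log2 scale. Me1, which supplies NADPH, was at 0.17 and did not pass in the authors' deposited table. The stearoyl-CoA desaturases, which put the double bond into stearate, fell on both sides of the threshold. Scd1 had 10909 normalised counts with DMSO against 7343 with ethanol (log2 0.57 ± 0.14, adjusted p = 0.000611, authors' deposited table). Scd2 was at 29431 with DMSO and 23744 with ethanol (log2 0.31 ± 0.13, adjusted p = 0.0946, authors' deposited table), and whether the desaturases differ in their change was not tested.

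With I-CBP112, 9 of the 32 genes rose over ethanol and 0 fell, by adjusted p below 0.05 in the authors' deposited table. Of all tested genes 4.65% rose and 5.25% fell. At an unadjusted p below 0.05, 14 of the 32 were higher and none was lower (DESeq2). The median of the 32 was 0.20 in the authors' deposited table, beside 0.01 for all tested genes. Positive values numbered 26 of 32, beside 52.3% of all tested genes. By role, 2 of 7 mevalonate genes, 4 of 11 squalene and sterol genes, 1 of 6 regulators and 2 of 8 fatty acid genes rose. This comparison uses the same ethanol libraries as the DMSO one.

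Acss2 had the highest fold change of the 32 genes with I-CBP112, at 1045 normalised counts against 620 with ethanol (log2 0.75 ± 0.16, adjusted p = 4.99e-05, authors' deposited table). Pmvk followed with 603 with I-CBP112 against 375 with ethanol (log2 0.69 ± 0.19, adjusted p = 0.00485, authors' deposited table). Elovl6 had 1502 with I-CBP112 against 981 with ethanol (log2 0.62 ± 0.15, adjusted p = 0.00111, authors' deposited table). These genes serve acetate use, mevalonate phosphorylation and chain lengthening.

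Within the sterol route, Hsd17b7 had the lowest adjusted p of the 32 genes with I-CBP112. Its mean was 3380 normalised counts with I-CBP112 and 2235 with ethanol (log2 0.60 ± 0.12, adjusted p = 4.65e-05, authors' deposited table). Msmo1 had 5341 with I-CBP112 against 3690 with ethanol (log2 0.53 ± 0.13, adjusted p = 0.00156, authors' deposited table). Dhcr7 had 459.5 with I-CBP112 against 301 with ethanol (log2 0.61 ± 0.19, adjusted p = 0.0201, authors' deposited table). Insig1 rose here too, as the only regulator of the 6. Its level was 4490 with I-CBP112 and 3153 with ethanol (log2 0.51 ± 0.13, adjusted p = 0.00137, authors' deposited table).

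Tm7sf2 and Mvd passed by less. Tm7sf2 had 361 normalised counts with I-CBP112 against 231 with ethanol (log2 0.64 ± 0.22, adjusted p = 0.0391, authors' deposited table). Mvd had 773 with I-CBP112 against 533 with ethanol (log2 0.54 ± 0.18, adjusted p = 0.0304, authors' deposited table). Both calls were lost when p-values were adjusted over every gene with a p-value instead of those kept by the authors' filter. Other mevalonate genes did not pass with I-CBP112. Hmgcs1 was at 0.13 ± 0.11 (adjusted p = 0.626) and Idi1 at 0.19 ± 0.16 (adjusted p = 0.640) on the log2 scale in the authors' deposited table. Acat2 was at 0.35 ± 0.14 (adjusted p = 0.119), Fdps at 0.31 ± 0.12 (adjusted p = 0.0998) and Mvk at 0.01 ± 0.15 (adjusted p = 0.984) in the authors' deposited table. Lss, of the sterol route, was just over the threshold, at 0.47 ± 0.17 (adjusted p = 0.0526, authors' deposited table). Fasn was at -0.10 (95% interval -0.32 to 0.12) and Srebf1 at -0.25 (-0.54 to 0.03) in the authors' deposited table.

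With C646, 0 of the 32 genes passed against ethanol in the authors' deposited DESeq2 table, and 0 had an unadjusted p below 0.05. Of all 34250 genes adjusted there, 0.00584% passed, in either direction. The largest of the 32 changes was 0.19, in Lss, and the 95% intervals of all 32 lay between -0.50 and 0.59 on the log2 scale, by the authors' deposited table. Msmo1 was at 3902 normalised counts with C646 and 3690 with ethanol, and Acss2 at 640 with C646 and 620 with ethanol. The Wald statistics (fold change over standard error) of the 32 genes had a standard deviation of 0.45 with C646, beside 0.61 for all tested genes, in the authors' deposited table. With DMSO the same spread was 2.39 for the 32 genes and 2.23 for all tested genes.

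**Figure D2:**
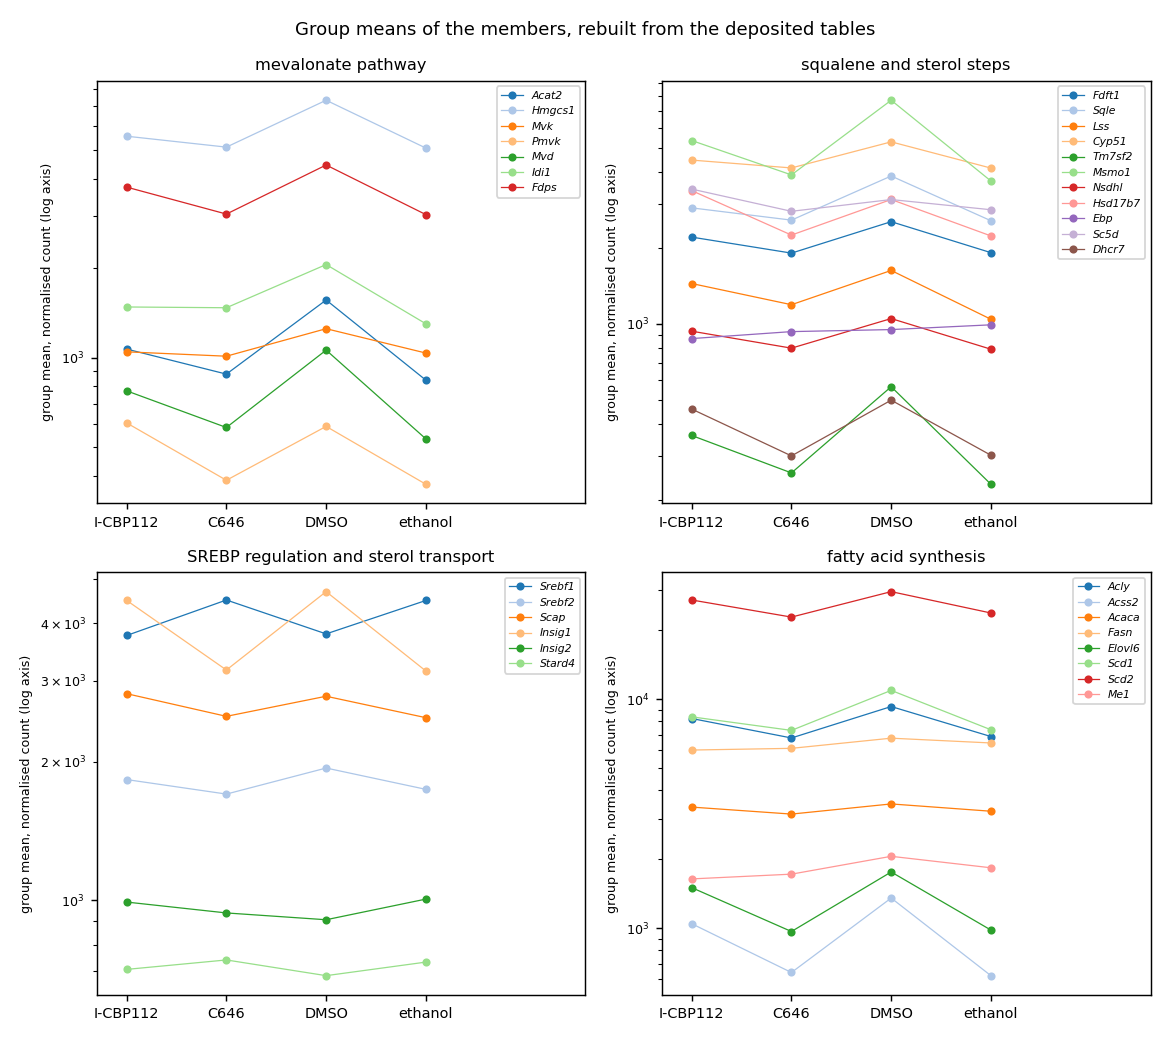
Group means in normalised counts (log axis) of the 32 genes with I-CBP112, C646, DMSO and ethanol, in 4 panels by role, with lines joining the means of a gene. The DMSO mean is the highest of the 4 for 24 of the 32 genes, among them Msmo1 with 5341 for I-CBP112, 3902 for C646, 7718 for DMSO and 3690 for ethanol. No error bars are drawn, because values of single libraries are not in the tables.

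Of the 4 group means, that of DMSO was the highest in 24 of the 32 genes, beside 37.0% of all tested genes. The I-CBP112 mean was the highest in 4, namely Pmvk, Hsd17b7, Sc5d and Scap. In the other 4, Ebp, Srebf1, Insig2 and Stard4, the highest mean was that of C646 or ethanol. None of these last 4 genes passed in any of the 3 tables.

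The treatments were then set against each other without the ethanol libraries, through the differences of the deposited fold changes and a rebuilt standard error, in 3 pairs (two-sided normal p, Benjamini-Hochberg adjusted over all tested genes within a pair). I-CBP112 was lower than DMSO in 26 of the 32 genes, with a median log2 difference of -0.17, beside -0.03 for all tested genes, of which 54.6% were lower. The difference passed in 6 genes, all lower with I-CBP112, and 0 were higher. Of all tested genes 2.66% were lower and 4.31% higher with I-CBP112. The 6 were 3 of the mevalonate pathway (Acat2, Hmgcs1 and Idi1) and 3 of the sterol route (Sqle, Tm7sf2 and Msmo1). No regulator and no fatty acid gene passed (3 fatty acid genes had an unadjusted p below 0.05). In none of the 3 pairs did a gene of the 32 differ in the direction opposite to those that passed at an unadjusted p below 0.05.

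Acat2 was at 1068 normalised counts with I-CBP112, against 1562 with DMSO, a log2 difference of -0.55 ± 0.14 (SE, adjusted p = 0.00369). Msmo1 was at 5341 with I-CBP112, against 7718 with DMSO (-0.53 ± 0.13, adjusted p = 0.00244). Tm7sf2 was at 361 with I-CBP112, against 564 with DMSO (-0.64 ± 0.21, adjusted p = 0.0421), the largest difference of the 6. Msmo1 and Tm7sf2 were both above their ethanol levels with I-CBP112, as given above. The other three had smaller differences. Sqle had 2887 with I-CBP112 against 3863 with DMSO (-0.42 ± 0.13, adjusted p = 0.0167). Hmgcs1 had 5553 with I-CBP112 against 7338 with DMSO (-0.40 ± 0.11, adjusted p = 0.00826). Idi1 had 1480 with I-CBP112 against 2055 with DMSO (-0.47 ± 0.16, adjusted p = 0.0489).

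These 6 calls depend on the rebuilt standard error. With an upper bound for that error, which no gene can exceed, 0 of the 6 passed. Idi1 and Tm7sf2 also lost their calls when the differences were centred on the median gene. For several genes with similar means in both groups the intervals stay wide. The log2 difference of Insig1 was -0.06 (95% interval -0.31 to 0.18), with 4490 normalised counts with I-CBP112 and 4692 with DMSO. That of Pmvk was 0.04 (-0.33 to 0.40), and that of Hsd17b7 was 0.12 (-0.12 to 0.36). For Acss2 it was -0.37 (-0.67 to -0.07), which did not pass after adjustment (adjusted p = 0.135). The dose of DMSO was 1%, and the sources used here do not state how much solvent the I-CBP112 cells received.

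**Figure D3:**
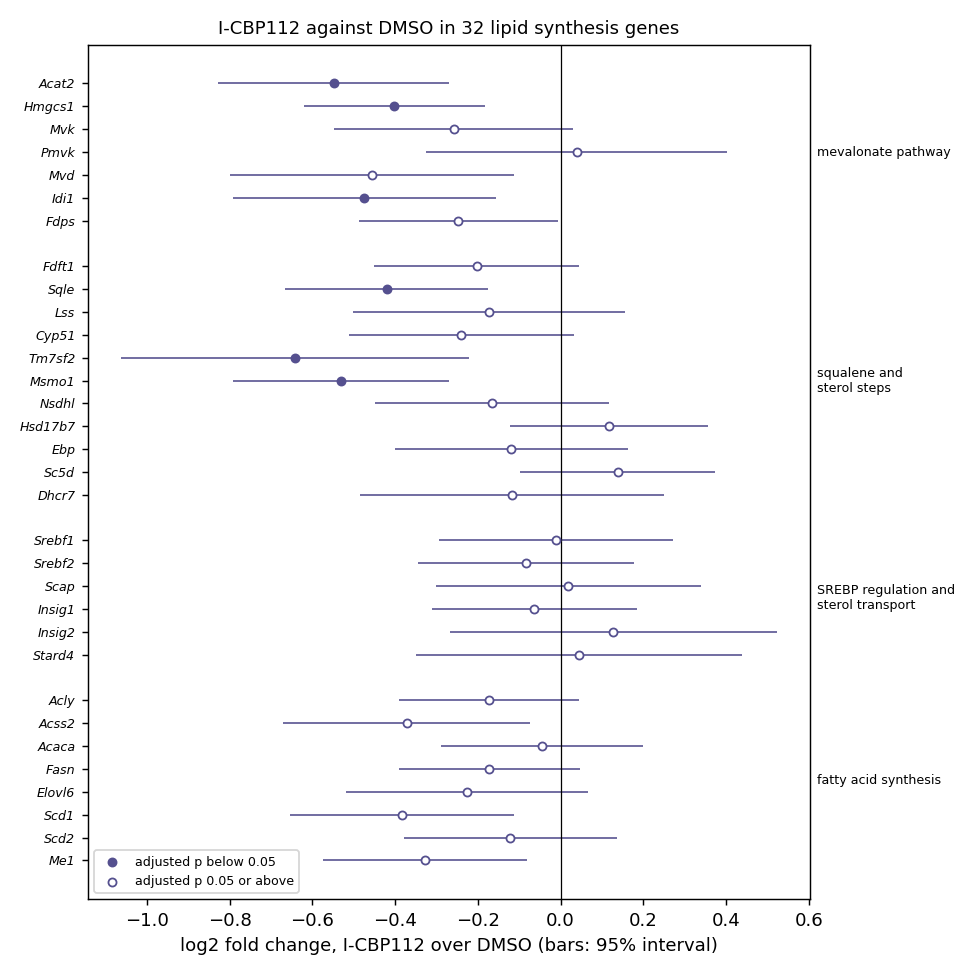
Log2 fold change of I-CBP112 over DMSO (horizontal axis) of the 32 genes (rows, grouped by role), with 95% intervals from the rebuilt standard error as bars. Filled points have an adjusted p below 0.05: 6 genes, all left of 0, from -0.40 for Hmgcs1 to -0.64 for Tm7sf2.

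C646 was lower than DMSO in 29 of the 32 genes, beside 54.2% of all tested genes. The difference passed in 20, all lower with C646, while 0 were higher. Of all tested genes 7.86% were lower and 7.98% higher with C646. The median log2 difference of the 32 was -0.45, beside -0.03 for all tested genes. Msmo1 had 3902 normalised counts with C646 against 7718 with DMSO (-0.98 ± 0.13, adjusted p = 1.63e-11). Acss2 had 640 with C646 against 1353 with DMSO (-1.08 ± 0.15, adjusted p = 2.16e-10). Scd2 passed in this pair, with 22787 with C646 against 29431 with DMSO (-0.37 ± 0.13, adjusted p = 0.0353). Scd2 lost its call under both scalings (adjusted p = 0.0660 centred on the median gene and 0.0585 with equal sums) and with the upper bound of the standard error (adjusted p = 0.334). With the upper bound of the standard error 10 of the 20 passed.

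I-CBP112 was higher than C646 in 27 of the 32 genes, beside 51.9% of all tested genes. The median log2 difference of the 32 was 0.22, beside 0.01 for all tested genes. The difference passed in 7, all higher with I-CBP112, while 0 were lower. Of all tested genes 4.69% were higher and 5.11% lower with I-CBP112. The 2 inhibitors were given at the same dose of 5 µM for the same 7 days. Hsd17b7 had 3380 normalised counts with I-CBP112 against 2252 with C646 (0.59 ± 0.12, adjusted p = 7.09e-05), and Acss2 had 1045 with I-CBP112 against 640 with C646 (0.71 ± 0.16, adjusted p = 0.000170). The other five were Elovl6 at 0.64 (adjusted p = 0.000654), Insig1 at 0.50 (adjusted p = 0.00165), Pmvk at 0.64 (adjusted p = 0.0102), Msmo1 at 0.45 (adjusted p = 0.0110) and Dhcr7 at 0.62 (adjusted p = 0.0174), all as log2 differences. They include sterol enzymes, a regulator and fatty acid enzymes. With the upper bound of the standard error 2 of the 7 passed.

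Genes related to the 32 were read from 4 lists. The first held 30 tested other SREBP targets and sterol or fatty acid synthesis genes. Of these, 8 rose and 1 fell with DMSO, and 4 rose and 0 fell with I-CBP112, in the authors' deposited tables. Over all tested genes 8.07% rose and 7.90% fell with DMSO, and 4.65% rose and 5.25% fell with I-CBP112. The medians of the list were 0.16 for I-CBP112 and 0.24 for DMSO, beside 0.01 and 0.03 for all tested genes. Elovl7, an elongase of long-chain fatty acids, had 198 normalised counts with I-CBP112, 99.1 with C646, 194 with DMSO and 104 with ethanol. Elovl5, which lengthens polyunsaturated fatty acids, had 2762 with I-CBP112, 2032 with C646, 2994 with DMSO and 1984 with ethanol. Both rose with DMSO, by log2 0.90 ± 0.28 (Elovl7, adjusted p = 0.0133) and 0.59 ± 0.13 (Elovl5, adjusted p = 9.29e-05), in the authors' deposited table.

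Lpin1, a phosphatidate phosphatase of triglyceride synthesis, rose with I-CBP112, to 2419 normalised counts against 1516 with ethanol (log2 0.67 ± 0.12, adjusted p = 3.19e-06, authors' deposited table). Against DMSO, at 1677, it was also higher with I-CBP112 (0.53 ± 0.12, adjusted p = 0.000840). Fads2, a desaturase of polyunsaturated fatty acids, and Gpam, which starts glycerolipid synthesis, went the other way in that pair. Fads2 was lower with I-CBP112 than with DMSO by a log2 difference of -0.62 ± 0.14 (adjusted p = 0.000592), and Gpam by -0.58 ± 0.13 (adjusted p = 0.000631). Hacd2, a dehydratase of fatty acid elongation, was the gene of the list that fell with DMSO (log2 -0.51 ± 0.16, adjusted p = 0.0135, authors' deposited table).

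Among 12 tested genes of SREBP processing and sterol-regulated degradation, 0 passed with I-CBP112 (DESeq2, 1 at unadjusted p below 0.05) in the authors' deposited table. In the 13 genes of the isoprenoid branches, which use farnesyl diphosphate for prenylation, dolichol and ubiquinone, 1 rose and 0 fell with DMSO and 0 passed with I-CBP112 (DESeq2, 1 at unadjusted p below 0.05), in the authors' deposited tables. With I-CBP112, 4.65% of all tested genes rose and 5.25% fell. The share of the isoprenoid genes that rose with DMSO is near the 8.07% of all tested genes. The isoprenoid gene that rose was Fnta, a subunit shared by prenyltransferases (log2 0.49 ± 0.16, adjusted p = 0.0183, authors' deposited table).

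Of the 19 genes of sterol efflux, esterification and lysosomal release, 17 did not pass with I-CBP112 and 13 did not with DMSO. By the authors' deposited tables, genes that rose numbered 1 with I-CBP112 and 3 with DMSO, and genes that fell 1 with I-CBP112 and 3 with DMSO, with medians of 0.01 for I-CBP112 and -0.03 for DMSO. The I-CBP112 counts are near the shares over all tested genes, 4.65% higher and 5.25% lower. With DMSO those shares were 8.07% higher and 7.90% lower. Nceh1, a cholesteryl ester hydrolase, rose with DMSO (log2 0.74 ± 0.16, adjusted p = 0.000104) and with I-CBP112 (0.50 ± 0.16, adjusted p = 0.0243), in the authors' deposited tables. Cyp7b1 and Cyp27a1 were 2 of the 3 genes that fell. Cyp7b1, which hydroxylates oxysterols, fell to 38.0 normalised counts with DMSO, against 129 with ethanol (log2 -1.76 ± 0.39, adjusted p = 0.000120, authors' deposited table). Cyp27a1, the sterol hydroxylase of mitochondria, fell to 328 with DMSO, against 682 with ethanol (log2 -1.06 ± 0.22, adjusted p = 3.82e-05, authors' deposited table). With I-CBP112 Cyp27a1 was at 525, above its DMSO level (log2 0.68 ± 0.22, adjusted p = 0.0346).

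**Figure D4:**
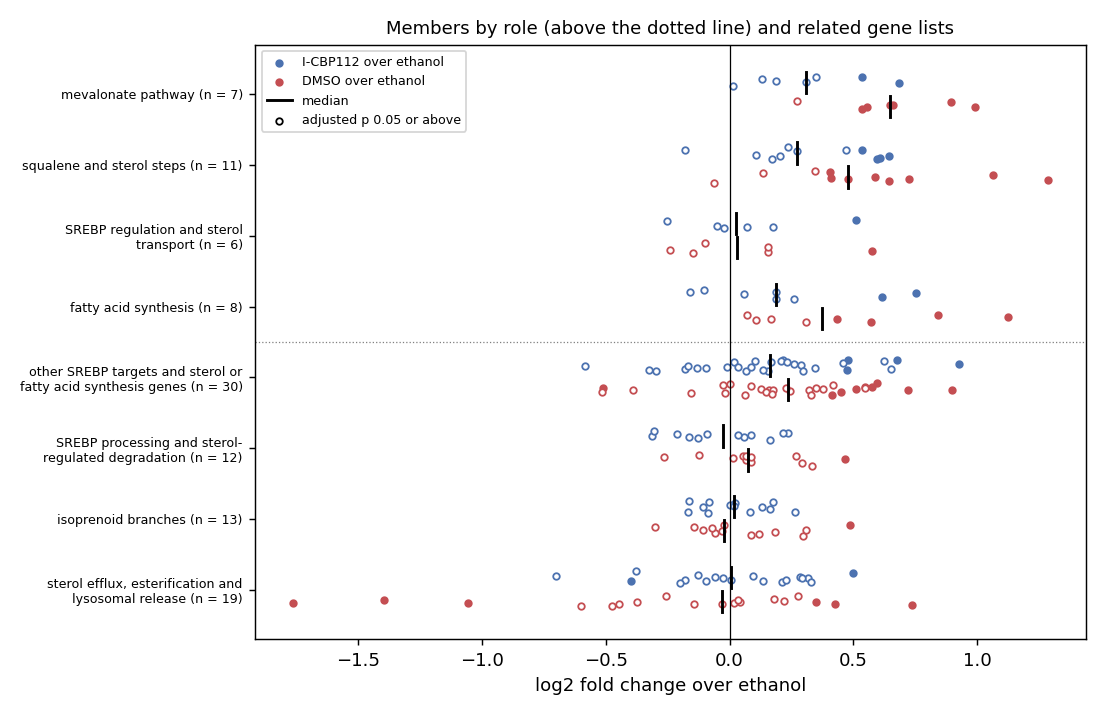
Log2 fold change over ethanol (horizontal axis) with I-CBP112 and DMSO of the 32 genes in 4 role groups (above the dotted line) and of 4 related gene lists (below it), 1 point per tested gene, with bars at the medians. Filled points have an adjusted p below 0.05 in the deposited tables; in the mevalonate group the medians are 0.31 with I-CBP112 and 0.65 with DMSO, and in the list of sterol efflux genes they are 0.01 with I-CBP112 and -0.03 with DMSO.

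Marker genes of the cells present also differed between the treatments. All 10 fibroblast markers were detected, and their summed level was 557076 normalised counts with I-CBP112, 925002 with C646, 618480 with DMSO and 935176 with ethanol. The largest part came from Col3a1 (237283 with I-CBP112, 433769 with C646, 279500 with DMSO and 442902 with ethanol). Of the 10, 7 fell with I-CBP112 and 8 with DMSO in the authors' deposited tables. The shares over all tested genes were 5.25% lower with I-CBP112 and 7.90% lower with DMSO. Vim was among those that did not fall with I-CBP112 (128290 against 124509 with ethanol). The 8 cardiac muscle markers summed to 287698 with I-CBP112, 110146 with C646, 300163 with DMSO and 108871 with ethanol. Of these markers 8 rose with I-CBP112 and 7 with DMSO in the authors' deposited tables. Over all tested genes 4.65% rose with I-CBP112 and 8.07% with DMSO. In bulk RNA, fewer cells of a type and less RNA per cell cannot be told apart. The part of these differences in the levels of the 32 genes was not tested.

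Of 10 adipocyte markers, which matter because adipocytes make fatty acids, 5 were under a mean of 50 normalised counts. Their sum was 4291 with I-CBP112, 6235 with C646, 5872 with DMSO and 6171 with ethanol, and most of it came from Lpl (3070 with I-CBP112, 4499.8 with C646, 4832 with DMSO and 4506 with ethanol). Of the 7 tested, 4 fell with I-CBP112 and 3 with DMSO in the authors' deposited tables. Over all tested genes 5.25% fell with I-CBP112 and 7.90% with DMSO. Of 5 hepatocyte markers 3 were at 0 and all were under 50 normalised counts. The 6 macrophage markers summed to 2623 with I-CBP112, 3003 with C646, 3324 with DMSO and 3188 with ethanol, most of it from Lyz2. Of these, 2 fell with I-CBP112, Adgre1 and Csf1r, and 0 passed with DMSO (DESeq2, 0 at unadjusted p below 0.05), in the authors' deposited tables.

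Some counts may share reads with neighbours or copies, where their transcripts share sequence. No strand setting for the counting is stated. The overlaps below are between whole gene spans, introns included, and overlap of the transcripts was not examined. In GENCODE M21, Acss2 overlaps Gss on the other strand over 22544 bases, and Gss was at log2 0.65 with DMSO in the authors' deposited table. Mvd overlaps Gm20388 on the other strand over 9822 bases. Gm20388 had a mean of 2986 normalised counts and was at 0.75 in the same authors' deposited table. Fdps overlaps Gm43738 on the same strand over 7512 bases. Gm43738 had a mean of 36.4 and was at 0.77 with DMSO in the authors' deposited table. Acat2 has a close copy, Acat3, which had a mean of 43.1 normalised counts and a log2 change of -0.18 with DMSO in the authors' deposited table. How reads were divided among such genes was not tested.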

How the data were processed

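RNA was sequenced from 8 libraries, 2 for each of 4 treatments, grouped by the treatment in the labels. Per the submitters' processing notes, reads were quantified with kallisto 0.43.1 and compared with DESeq2 (version not given in the sources used here) on build GRCm38.p5. The authors deposited 3 comparison tables with no values of single libraries. Their baseMean is a signal, the authors' mean normalised count over all libraries, and is equal in the 3 tables for all 50600 genes. The deposited log2 fold changes, the Wald statistic (a score) and each p-value and adjusted p are the authors'. The tables name no reference, and ethanol, the only treatment with no table of its own, was read as the reference. Of 2312 genes with a mean under 0.16, which hold few counts, 598 were seen in a group other than the 3 named ones. Totals of single libraries are not in the tables. The summed mean normalised count was about 3.80e+07, and the standard errors give the precision.

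The mean of each group was computed from baseMean and the 3 fold changes. Differences between treatments were divided by a standard error derived from those of the 3 tables, assuming that a gene has the same dispersion in every group. The normal p-values, two-sided, were adjusted by Benjamini-Hochberg over 14830 genes within each of the 3 pairs. For the 32 genes, each deposited standard error predicted from the other tables was off by at most 0.448%. DESeq2 fits a single dispersion per gene across groups, so this agreement checks the calculation and not the assumption. The method was tested on simulated data in which a gene had the same dispersion in every group. The simulation could therefore not test the assumption of equal dispersion. The members and lists were chosen with earlier results of these data known, and no list was tested as a set. All 32 members are named. Full values are given for those that passed in any table or pair and for paralogs on both sides of the threshold. At most the 3 highest and 3 lowest called genes of each related list are named. Some genes that this rule allows are not reported here. Versions were Python 3.11.15, numpy 2.4.6, pandas 2.3.3 and scipy 1.17.1. Alternatives were the threshold, the adjustment, a filter at a mean of 50, 2 scalings, the distribution of the statistic and an upper bound of the rebuilt error.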

Additional observations from a re-analysis of the deposited data

How the results depend on the processing

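The main limit is 2 libraries a group. With p taken from a t distribution on 4 degrees of freedom, 0 members passed against ethanol with DMSO or I-CBP112 and 0 in any of the 3 pairs, where 19 (DMSO against ethanol), 10 (I-CBP112 against ethanol), 6 (I-CBP112 against DMSO), 18 (C646 against DMSO) and 7 (I-CBP112 against C646) had an unadjusted p below 0.05. Over all tested genes 1 then passed with DMSO against ethanol. This alternative takes no account of the information on spread that DESeq2 shares between genes. At an adjusted p below 0.01 the counts were 3 for I-CBP112 against DMSO and 4 for I-CBP112 against C646. With the upper bound of the standard error they were 0, 10 and 2 for I-CBP112 against DMSO, C646 against DMSO and I-CBP112 against C646. Smaller losses took I-CBP112 against ethanol to 6 and C646 against DMSO to 14 at an adjusted p below 0.01, and I-CBP112 against DMSO to 4 under both scalings. No direction was reversed in the alternatives run, but only the 2 scalings change a fold change at all. Their shifts were small beside the changes that passed, so this is no test of direction. Lss, Nsdhl and Scd2 lost their calls for C646 against DMSO under both scalings. Leaving out a library was not run, since the tables hold no values of single libraries, and no symbol was repeated. No paired analysis was possible because the tables hold no values of single libraries, although the numbers 2 and 3 recur in each group.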
